A study of Mus musculus with 6 samples.

Results

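The genes described are 9 interferon signalling factors and RNA sensors: the transcription factors Irf1, Irf3, Irf7, Irf8, Irf9 and Stat2, the receptor chain Ifnar2, and the RNA sensors Ifih1 and Dhx58. They are 9 of 19057 genes with a named probe, and 21 probes measure them. They were chosen by function and on earlier values of these arrays, in which Irf7 read lower with free Ub while Irf1 did not move, so the differences of the 9 genes are given as a description and are not tested. Expression was measured in intestines of male C57 mice aged 4 weeks in the sample labels (the paper's methods give older mice), 3 given free ubiquitin (free Ub) and 3 given phosphate buffered saline (PBS), on 1 Illumina bead array per intestine, each taken here as 1 mouse. All 6 mice had received 7 Gy total body irradiation, and the labels place the treatment after it and the tissue collection 3.5 days after it, where the paper's figure legend gives a shorter time. The paper's general methods place the injection before the irradiation unless stated otherwise, so the order of the treatments is not settled for these mice. No unirradiated intestine was analysed here, so each difference sets free Ub against PBS in irradiated mice. The labels do not say whether the 3 intestines of a group came from separate litters or cages.

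Interferons are secreted proteins that place cells in an antiviral state. RNA helicases such as Ifih1 detect double-stranded RNA in the cytoplasm and act through kinases on Irf3 and Irf7, which switch on the type I interferon genes. Type I interferon then binds a receptor that includes Ifnar2, and Stat2 and Irf9, joined with a further STAT protein in the complex ISGF3, switch on interferon-stimulated genes, among them Irf7 and Dhx58 themselves. Of the interferons, interferon gamma is the main inducer of Irf1. The paper reports that radiation raised IRF1 protein in cultured intestinal cells, and it studied IRF1 as a factor that acts on ubiquitin genes.

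Values are log2 signals, and each gene was read from the brightest of its probes by mean signal. A signal within 0.01 log2 of an array's lowest value counts as at the floor. The spread within a group depended on brightness: the median SD was 0.19 log2 for genes with a mean above 6 and 0.82 for means of 2 to 4. Of 10 epithelial markers, 8 were above 6 log2 on every array and 5 of these above 12, and Fabp2 was between the floor and 1.78 log2. In whole intestine, fewer cells of a type and less RNA per cell cannot be told apart.

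The start regions of Irf1, Irf7 and Stat2 are shown because these genes stand for the interferon gamma response, the type I response and ISGF3. RefSeq windows of 250 bases before to 50 after a transcription start (GRCm38.p6) were found for 8 of the 9 genes, 11 windows in all. They were searched on both strands for the ISRE core GAAANNGAAA, the element that ISGF3 and IRF factors bind, and for the gamma activated sequence (GAS) TTCNNNGAA, which STAT dimers bind and which reads the same way on both strands. The 250 bases before the start follow, 5′ to 3′, with matches in capitals. Irf1 is at chr11:53769764-53770013 (plus strand), Irf7 at chr7:141266425-141266674 (minus strand) and Stat2 at chr10:128270248-128270497 (plus strand).
Irf1: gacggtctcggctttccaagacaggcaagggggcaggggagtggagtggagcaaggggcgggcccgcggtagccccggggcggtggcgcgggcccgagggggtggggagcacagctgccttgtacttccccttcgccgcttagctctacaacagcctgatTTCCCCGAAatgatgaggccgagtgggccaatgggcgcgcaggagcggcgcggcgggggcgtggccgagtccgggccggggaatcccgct
Irf7: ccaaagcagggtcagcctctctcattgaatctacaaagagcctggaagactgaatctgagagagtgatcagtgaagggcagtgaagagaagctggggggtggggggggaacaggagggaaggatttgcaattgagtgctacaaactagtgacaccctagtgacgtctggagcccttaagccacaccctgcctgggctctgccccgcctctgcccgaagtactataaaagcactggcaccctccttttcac
Stat2: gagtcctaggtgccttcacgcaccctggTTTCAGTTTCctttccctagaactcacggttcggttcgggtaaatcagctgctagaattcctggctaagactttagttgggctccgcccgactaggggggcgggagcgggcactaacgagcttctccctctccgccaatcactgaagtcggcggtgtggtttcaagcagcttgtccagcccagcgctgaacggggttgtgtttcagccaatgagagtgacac

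The Irf1 window, at the first of its 2 starts, holds 1 GAS match, 90 to 82 bases before the start, and no ISRE core. The Irf7 window holds neither pattern, which says only that these letters are not in it. The annotated Irf7 gene reaches to base 141266499, inside the printed bases, so part of them lies within the gene. Bases beyond the window were not searched. The Stat2 window holds 1 ISRE core, on the minus strand 222 to 213 bases before the start. Of the other genes, Irf8 has 2 GAS matches (TTCTCGGAA and TTCAGAGAA), Ifnar2 1 (TTCCTGGAA) and Ifih1 an ISRE core (GAAACAGAAA) at positions 33 to 42 counted from its start, while the windows of Irf3 and Irf9 have none. Of all 32851 windows in the table, 3.44% hold the ISRE core and 8.30% the GAS pattern. A match describes the letters and is not evidence of binding.

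**Figure D1:**
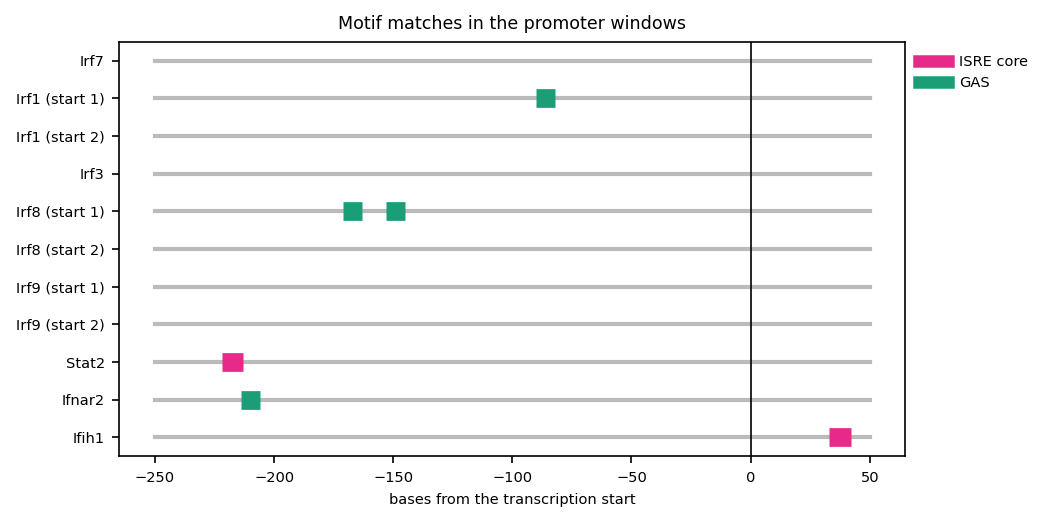
Position of ISRE core and GAS matches (horizontal axis, bases from the transcription start) in the 11 promoter windows of 8 genes, each grey line one window. Matches lie in the windows of Irf1, Irf8, Stat2, Ifnar2 and Ifih1, and Irf7 has none.

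Irf7 and Dhx58 read lower with free Ub than with PBS with no overlap between the groups, and the other 7 genes overlapped. Irf7, the factor that amplifies type I interferon production, had 7.59, 7.20 and 7.18 log2 in free Ub intestines, against 8.04, 8.10 and 7.86 in PBS intestines. The highest free Ub mouse, replicate 1, stayed 0.27 log2 below the lowest PBS mouse. The means were 7.33 ± 0.23 with free Ub and 8.00 ± 0.12 with PBS (SD, n = 3 each), a difference of -0.67 ± 0.14 log2 (SE of the fit) or a 1.60-fold lower signal. Neither motif was found in the Irf7 window shown above. Irf7 has 1 probe, so no other probe can be set beside it. Without any 1 of the 6 mice its difference lay between -0.81 and -0.60.

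Dhx58, the helicase LGP2, binds RNA but lacks the signalling domains of its relatives and tunes their output. It had 6.68, 6.15 and 6.10 log2 with free Ub, against 7.52, 7.21 and 6.83 with PBS. Its difference was -0.87 ± 0.26, a 1.83-fold lower signal, with 0.15 log2 between the nearest mice of the groups. The order of the mice within each group was like that of Irf7, in that free Ub replicate 1 was the highest of its group and PBS replicate 3 the lowest of its own. On a further probe the values were 6.31, 5.95 and 5.85 with free Ub and 7.18, 6.89 and 6.84 with PBS, again without overlap. The next probe differed by -0.56 and overlapped (5.53, 5.97 and 5.29 with free Ub, 6.42, 6.31 and 5.76 with PBS). The dimmest probe, with a mean of 2.35, differed by 0.50 and had between 0.60 and 3.49 log2 with PBS, and the mean of all 4 probes gave -0.47.

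Lower values without overlap were seen in 2 of the 8 genes above the floor on all 6 arrays, and higher values without overlap in 0. Over all 11923 genes above the floor on all 6 arrays, 6.27% were lower and 4.45% higher without overlap. Since these genes were chosen on this contrast, nothing is read from the count. Their median difference was -0.12 log2 over the 8 genes and -0.03 over the 11923.

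**Figure D2:**
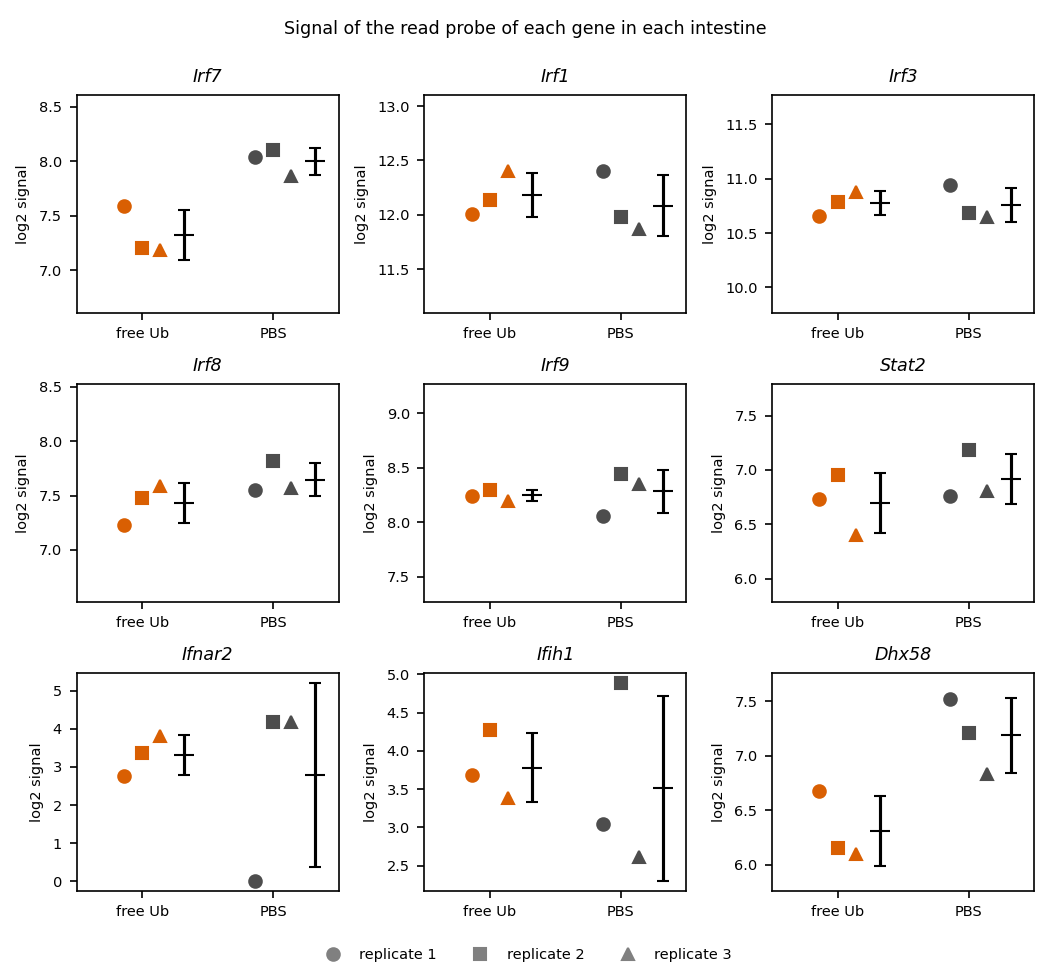
log2 signal of the brightest probe of each of the 9 genes (vertical axis, range set per gene) in the 3 free Ub and 3 PBS intestines; symbols mark the replicate number, and bars show the mean ± SD. Irf7 and Dhx58 do not overlap between the groups, while Ifnar2 in PBS replicate 1 lies at the floor.

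Irf1, which controls antigen presentation and other interferon gamma responses, did not separate the groups. Of the 3 start regions printed, its own is the one with a GAS match. It had 12.01, 12.14 and 12.40 log2 with free Ub, against 12.40, 11.98 and 11.87 with PBS, a difference of 0.10 ± 0.19. The highest mouse of each group reached the same level, free Ub replicate 3 and PBS replicate 1. The sign turned without PBS replicate 3 or without free Ub replicate 3, to -0.01 in both cases. The other 4 probes of Irf1 overlapped as well and differed by 0.03, 0.21, 0.11 and 0.36 log2, from the brighter to the dimmer.

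Irf3, the factor that RNA sensing activates directly, had 10.66, 10.79 and 10.88 log2 with free Ub and 10.94, 10.68 and 10.65 with PBS. Its difference of 0.02 ± 0.11 was smaller than the SD of either group and turned to -0.04 without PBS replicate 3, to -0.03 without free Ub replicate 3 and to -0.02 without PBS replicate 2. The other probes differed by 0.10 and 0.36, with overlap. On the brightest probe of each, Irf3 went with Irf1 across the mice: PBS replicate 1 was the highest of the 6 for Irf3 and free Ub replicate 3 the next. The other Irf3 probes did not share this order, and PBS replicate 1 was the lowest of the 6 on them, at 7.60 and 6.32.

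Irf9 and Stat2, the members of ISGF3 measured here, overlapped between the groups. Irf9, its DNA-binding subunit, had 8.24, 8.30 and 8.20 log2 with free Ub and 8.06, 8.44 and 8.35 with PBS, a difference of -0.03 ± 0.11, and its other probe differed by 0.07. The 3 free Ub mice lay within the range of the PBS mice. Stat2, whose printed window holds an ISRE core, carries the activation domain of the complex and had 6.73, 6.95 and 6.40 with free Ub and 6.76, 7.18 and 6.81 with PBS. Its difference of -0.22 ± 0.20 kept its sign in all settings tried, between -0.35 and -0.08.

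Irf8, which directs the development of dendritic cells, monocytes and B cells, had 7.23, 7.48 and 7.59 log2 with free Ub and 7.55, 7.82 and 7.57 with PBS. The difference was -0.22 ± 0.13, and free Ub replicate 3 lay above PBS replicates 1 and 3. Of 10 measured macrophage and monocyte markers 5 were lower and 5 higher with free Ub, and their summed linear signal was 1036 to 1836 with free Ub and 1123 to 2216 with PBS. Of 9 conventional dendritic cell markers 6 were lower and 3 higher, and 6 had a value at the floor. Their sums, 81.0% to 88.0% of them Itgae, were 319.7 to 424.9 with free Ub and 397.3 to 413.8 with PBS. Without Itgae the sums were 38.44 to 67.9 with free Ub and 61.64 to 75.83 with PBS. Of 6 B cell markers 2 were lower and 4 higher (sums of 55.87 to 79.6 with free Ub and 51.18 to 71.94 with PBS, 52.4% to 80.8% of them Cd79b), with Pax5 at the floor on 5 of 6 arrays. The part of these cells in the values of Irf8 was not tested.

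Ifih1 and Ifnar2 were dim, and their differences were smaller than the SE. Ifih1, the sensor MDA5 of long double-stranded RNA, had 3.69, 4.27 and 3.38 log2 with free Ub and 3.04, 4.89 and 2.61 with PBS (0.26 ± 0.70), and the PBS mice enclosed the free Ub mice. Ifnar2 had 2.76, 3.38 and 3.81 with free Ub, while with PBS it was at the floor in replicate 1 and at 4.19 in each of replicates 2 and 3. Its listed difference of 0.52 ± 1.34 was -0.87 without that PBS mouse. The 2 dimmer Ifnar2 probes differed by 1.35 and -0.32, both with overlap.

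**Figure D3:**
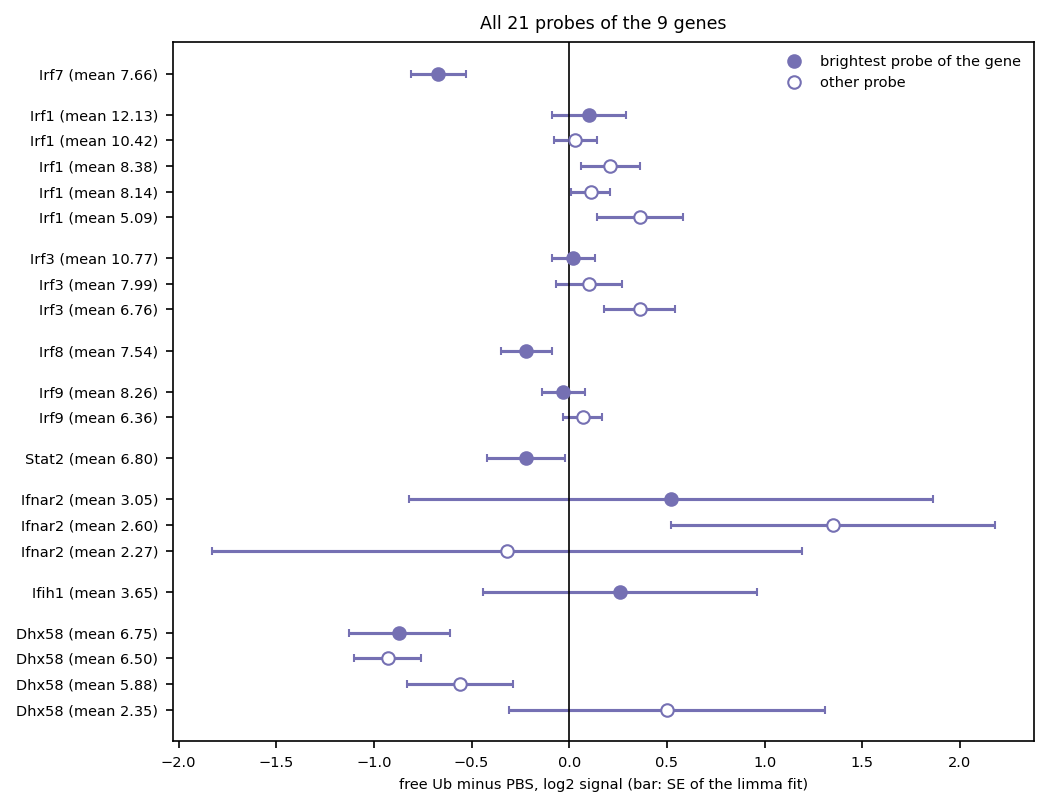
Difference between free Ub and PBS (horizontal axis, log2 signal) for the 21 probes of the 9 genes, with each probe's mean over the 6 arrays in its label; filled points are the probes read, and bars are the SE of the fit. The 3 brighter Dhx58 probes lie between -0.93 and -0.56, all 5 Irf1 probes between 0.03 and 0.36.

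The signals of the other interferon pathway genes were lower with free Ub more often than higher. These genes are 117 in 7 lists: ligands, receptors and kinases, sensors, negative regulators, other IRF genes with Irf2-binding proteins, and targets. The targets form separate lists for type I interferon and for Irf1 or interferon gamma. Of the 117 genes 110 were measured, and 2 of these were at the floor on all 6 arrays. An unadjusted p under 0.05 in limma with a lower signal was reached by 18 of the 108 (16.7%), and with a higher signal by 1 (0.926%). Over all 17917 genes above the floor on at least 1 array, the shares were 3.62% lower and 2.48% higher. Of the 11923 genes above the floor on all 6 arrays, 53.9% were lower in mean. This share stands beside the counts of genes lower in mean in each list below. After Benjamini-Hochberg adjustment over all probes 0 of the 108 passed in limma, and 11 of the 17917 (0.0614%). The methods' t-test also gave 0 of the 108. Without free Ub replicate 2 the count of 18 was 8, and without free Ub replicate 3 it was 11. The lists were drawn up with earlier results known, and the lower interferon-stimulated genes were among those results, so the counts are no independent evidence.

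Type I interferon targets, which ISGF3 and Irf7 switch on, were lower for 26 of 30 measured genes and higher for 4. Their median difference was -0.39 log2, 9 had a lower signal at an unadjusted p under 0.05 (limma) and 0 a higher one, and 12 of the 26 above the floor on all arrays were lower without overlap. Over all genes 53.9% were lower in mean, 3.62% were lower at that p in limma and 6.27% were lower without overlap. Rtp4, a chaperone of cell surface receptors, had 4.45, 4.26 and 4.28 log2 with free Ub against 5.51, 5.83 and 5.32 with PBS (difference -1.22 ± 0.15; limma, adjusted p = 0.234). Oas2, which makes the messenger that activates RNase L, had 6.01, 5.98 and 6.60 with free Ub against 7.96, 7.89 and 7.28 with PBS (-1.51 ± 0.28, adjusted p = 0.482 in limma). The group difference of these 2 genes was larger than the range within either group. Oas1g and Oas3, of the same family, differed by -0.71 ± 0.12 and -1.22 ± 0.23 (limma, adjusted p = 0.450 and 0.493), although probes of the Oas1 genes may share sequence with near-identical copies. Without free Ub replicate 2 the count of 9 lower genes was 5, and without free Ub replicate 3 it was 4.

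Targets of Irf1 and interferon gamma were lower for 14 of 18 genes and higher for 4, with a median of -0.35 log2. Over all genes 53.9% were lower in mean, and 3.62% were lower at an unadjusted p under 0.05 in limma. At an unadjusted p under 0.05 (limma) 4 were lower and 0 higher, and these are the 4 named: Tap1, the transporter that loads peptides for MHC class I, and the GTPases Gbp3, Irgm1 and Igtp. Tap1 had 6.95, 6.88 and 6.62 log2 with free Ub against 7.22, 7.19 and 7.13 with PBS (-0.37 ± 0.10; limma, adjusted p = 0.739). Irgm1 had 10.61, 10.71 and 10.95 with free Ub against 11.33, 11.14 and 11.02 with PBS (-0.41 ± 0.13). Gbp3 and Igtp differed by -0.40 ± 0.12 and -0.50 ± 0.19. The count of 4 was 1 when any of replicates 1 and 2 of the free Ub group or replicates 1 and 2 of the PBS group was left out. Irf1 itself overlapped between the groups on the same arrays. Within the groups its values went with some of these targets and not with others. After the group means were taken away, Pearson's r with Irf1 was 0.97 for Irgm1, 0.92 for Igtp, 0.50 for Gbp3 and -0.37 for Tap1. Values this high were not particular to these targets: Usp18 had 0.98 and Cmpk2 0.97, both from other lists. Psmb8, of this list, had -0.92, and Ifi35, of another, -0.94.

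Of 12 negative regulators 9 were lower and 3 higher in mean. Usp18, which removes the modifier ISG15 and restrains the receptor at Ifnar2, had 9.51, 9.58 and 9.78 log2 with free Ub against 10.56, 10.12 and 9.95 with PBS (-0.59 ± 0.19; limma, adjusted p = 0.862). Rnf125, a ubiquitin ligase that acts on RNA sensors, was the 1 pathway gene with a higher signal at an unadjusted p under 0.05, with 6.33, 6.89 and 6.74 in free Ub intestines against 6.17, 5.88 and 5.68 in PBS intestines (0.74 ± 0.21; limma, adjusted p = 0.753). These groups did not overlap for either gene. Tnfaip3, the editing enzyme A20, differed by -0.24 ± 0.08, also without overlap, and Pias1, a SUMO ligase, by 0.20 ± 0.10 with overlap.

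Of a list of 6 other IRF genes and Irf2-binding proteins, 3 were lower and 3 higher in mean. Irf5, which acts downstream of Toll-like receptors in myeloid cells, had 4.83, 4.65 and 4.62 log2 with free Ub against 4.93, 5.06 and 5.18 with PBS (-0.36 ± 0.09; limma, adjusted p = 0.718). Irf2bp1, a corepressor that binds Irf2, differed by -0.34 ± 0.05 (limma, adjusted p = 0.374) and also had no overlap. Irf2bp2 and Irf2bpl, its relatives, overlapped at 0.30 ± 0.20 and -0.24 ± 0.19.

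Of 17 nucleic acid sensors and adaptors 12 were lower and 5 higher, and 0 reached an unadjusted p under 0.05 in limma. Ddx58, the sensor RIG-I and relative of Ifih1 and Dhx58, was picked out after its values were seen, and had 6.31, 6.46 and 6.16 log2 with free Ub against 6.29, 6.34 and 6.46 with PBS (-0.06 ± 0.10). Of the 3 related helicases, the groups separated for Dhx58 and overlapped for Ddx58 and Ifih1, and the difference between the genes was not tested. Eif2ak2, the RNA-activated kinase PKR, separated by 0.04 log2 at the nearest mice (-0.28 ± 0.12), while Ikbke, a kinase of Irf3 and Irf7, Traf6, a ubiquitin ligase, and Sting1, the adaptor of DNA sensing, overlapped at -0.20 ± 0.11, -0.31 ± 0.19 and -0.22 ± 0.14.

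Of 9 receptors, kinases and STATs 6 were lower and 3 higher, and 0 reached an unadjusted p under 0.05 in limma. Il10rb, a chain shared by the receptors of IL-10, IL-22 and interferon lambda, had no overlap at 0.27 ± 0.10 (limma, adjusted p = 0.872), and Stat3, Ifngr1, the ligand-binding chain of the interferon gamma receptor, and the kinase Jak2 overlapped at -0.29 ± 0.12, 0.27 ± 0.12 and 0.34 ± 0.29. Of 18 ligands Ifnb1 and Ifnl3 were at the floor on all 6 arrays and 9 others on some of them. Ifna1, Ifnab and Ifna6, near-identical copies that the probes may not tell apart, overlapped at -0.39 ± 0.32, 0.05 ± 0.18 and -0.02 ± 0.25. Ifng, picked out after its values were seen since its mean of 2.51 log2 was below the naming limit of 4, had 1.95, 1.90 and 2.13 with free Ub against 2.76, 3.40 and 2.91 with PBS (-1.03 ± 0.19; limma, adjusted p = 0.493). It was the 1 ligand of 16 tested whose unadjusted p was under 0.05 in limma, with a lower signal. All its values lie below 4 log2, so raising values to a floor of 4 leaves no difference. Its SDs of 0.12 with free Ub and 0.34 with PBS were small beside the median of 0.82 for means of 2 to 4.

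**Figure D4:**
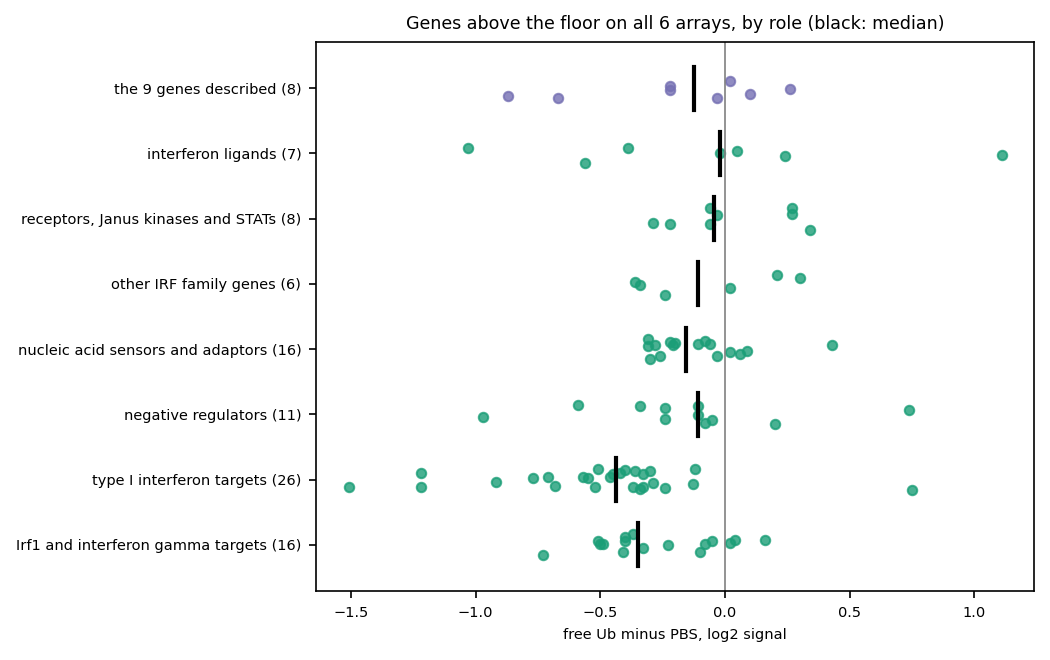
Difference between free Ub and PBS (horizontal axis, log2 signal) for the genes above the floor on all 6 arrays, by list, with their number in brackets; each point is a gene, black lines are list medians. The medians of the type I and of the Irf1 and interferon gamma targets are -0.44 and -0.35, and the other pathway lists lie between -0.15 and -0.02.

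The genes most like Irf7 and those most like Irf1 across the mice are listed as a description. Irf7 and Irf1 had r = -0.31 with each other, so no gene could be close to both. Irf7 was chosen for its group difference, so r with it ranks genes in part by that same difference. Likeness was measured by Pearson's r over the 6 arrays with 6139 genes whose mean exceeded 6 log2 and that never lay at the floor. With 6 arrays 78 genes reached 0.9 or more for Irf7 and 147 for Irf1. The 5 genes most like Irf7 were Mfsd6l (r = 0.99), a transporter-like protein, Rgp1 (0.97), of the Golgi retrograde transport machinery, Psmg3 (0.97), a proteasome assembly chaperone, Tap2 (0.97), the partner of Tap1, and Sf3b5 (0.97), a splicing factor subunit. Ifit3 stood at rank 8 (0.97), Dhx58 at rank 12 (0.96) and Tap1 at rank 30 (0.94), while Stat2 had 0.54, Irf8 0.41, Irf9 0.11, Irf3 -0.21 and Irf1 -0.31. After the group means were taken away, r with Irf7 was 0.98 for Mfsd6l, 0.96 for Ifit3, 0.87 for Dhx58, 0.83 for Tap2 and 0.02 for Oas2. Oas2 had its highest free Ub value in replicate 3, where Irf7 had its lowest.

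The 5 genes most like Irf1 were Cwf19l1, Anxa4, Mboat1, Nadk and Bok, each with r = 0.99 and 0.99 after the group means were taken away. Anxa4, a membrane-binding annexin, had 9.32, 9.45 and 9.89 log2 with free Ub and 9.78, 9.22 and 9.14 with PBS, and Bok, a BCL2 family protein, had 7.58, 7.87 and 8.19 with free Ub and 8.31, 7.59 and 7.29 with PBS. Free Ub replicate 3 and PBS replicate 1 were the highest in these genes as in Irf1. Irf3 had r = 0.96 with Irf1 (rank 27) and Irf9 -0.80. These values are a description over 6 arrays that share their normalization, and they rest on the brightest probe of each gene. On an Irf1 probe with a mean of 8.38 the order was another. There free Ub replicate 3 was the lowest of its group at 8.39, and PBS replicate 1 had 8.24 against 8.51 in PBS replicate 3.

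**Figure D5:**
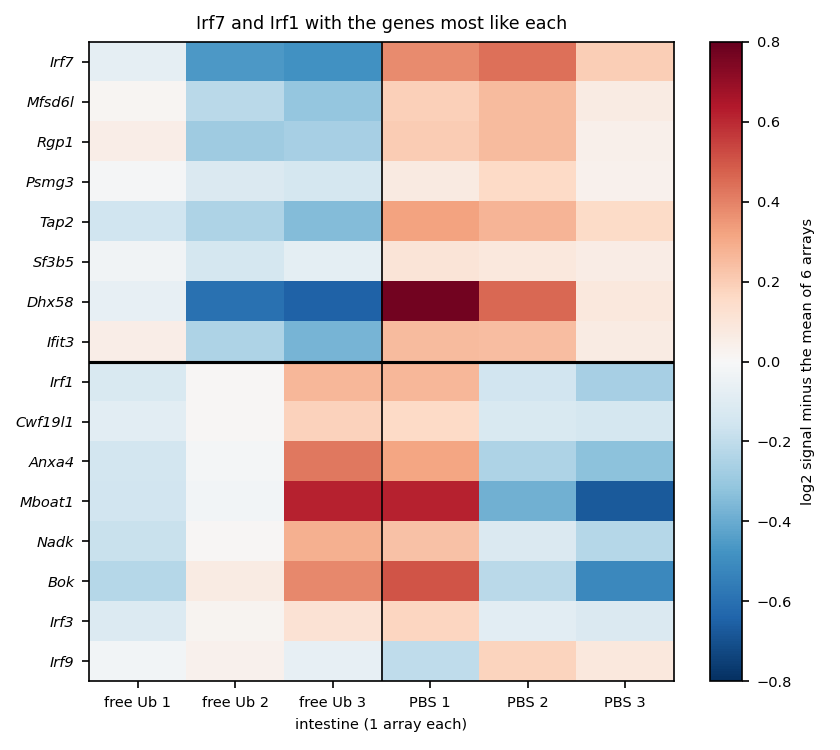
log2 signal minus the gene's mean over the 6 arrays (colour, red above and blue below) in each intestine, for Irf7 and Irf1 with the 5 genes most like each and 2 further genes. The Irf7 rows are higher in the PBS than in the free Ub intestines, except that Rgp1 has 6.33 log2 in free Ub replicate 1 and 6.32 in PBS replicate 3, and the Irf1 rows other than Irf9 are highest in free Ub replicate 3 and PBS replicate 1.

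Markers of other cells were set beside Irf7 and Dhx58. Of all genes above the floor on all 6 arrays, 53.9% were lower in mean. Of 9 measured endothelial markers 7 were lower and 2 higher with free Ub, and their summed linear signal was 509.8 to 616.1 with free Ub and 677.8 to 820.7 with PBS, with 0 of the 9 at the floor on any array. For T and NK cells 9 markers were measured, 5 lower and 4 higher, with sums of 1932 to 2282 with free Ub and 2511 to 2596 with PBS. Of these 3 had a value at the floor, and Cd3e, Cd3d and Cd3g, above 6 log2 on all arrays, overlapped at differences of -0.12, -0.08 and 0.02. The T and NK sum was 60.3% to 67.3% Cd8b1, and only Cd8b1 and Prf1 of its 9 genes separated the groups. Both sums separated the groups, and they still did without their 2 brightest genes. Without Emcn and Robo4 the endothelial sum was 187.5 to 259.3 with free Ub and 283.1 to 324.2 with PBS. Without Cd8b1 and Cd3g the T and NK sum was 454.1 to 605.1 with free Ub and 610.7 to 662.6 with PBS. Without the genes that separated the groups singly both sums overlapped. Taking out those genes makes an overlap likely in advance, so nothing is concluded from it. Without Cd8b1 and Prf1 the T and NK sum was 592.1 to 722.8 with free Ub and 587.9 to 735.1 with PBS. Without Eng, Robo4, Emcn and Vwf the endothelial sum was 110.9 to 138.7 with free Ub and 100.9 to 150.7 with PBS. Of 7 plasmacytoid dendritic cell markers, a cell type rich in Irf7, 5 were lower and 2 higher, 3 had a value at the floor, and Siglech had 3.48, 3.44 and 4.15 log2 with free Ub and 4.82, 4.89 and 3.83 with PBS. Their summed signal was 56.2% to 88.6% Klk1, which other cells also express. Without Klk1 it was 452.0 to 623.8 with free Ub and 604.9 to 645.1 with PBS, with Tcf4 the next brightest. Without Klk1 and Tcf4 it was 62.42 to 111.7 with free Ub and 71.32 to 126.0 with PBS. The sums of the epithelial markers (45600 to 68510 with free Ub, 58820 to 61770 with PBS) and of the fibroblast and smooth muscle markers (5978 to 7215 with free Ub, 4881 to 9528 with PBS) overlapped. The part of these cells in the values of Irf7 and Dhx58 was not tested.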

How the data were processed

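RNA of 6 intestines was hybridised to Illumina MouseWG-6 v2 BeadChips, 1 array per mouse. Per the labels, rRNA was removed from the total RNA first. The authors normalized the raw data by cubic splines in GenomeStudio. The deposited values were taken as log2 signals because their highest value, 14.487, lies within a scanner's range on this scale only, and no source states the transform. Nor does any source describe the background correction or why many probes lie near 0. All 6 columns share their upper quartile and highest value, so no further normalization was applied. No detection p-values were used here, and brightness sets the precision.

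Of 45281 probes, 34885 had 1 gene symbol in the platform annotation, 18 had several and 10378 had none. Symbols were matched by gene ID to RefSeq. The difference, free Ub minus PBS, was fitted for every probe with limma 3.58.1 under R 4.3.3 (lmFit, then eBayes). Tests were two-sided, and p-values were adjusted by Benjamini-Hochberg across the whole array. A gene was read from its brightest probe. The genes and lists were chosen with earlier results of these data known. In each list up to 4 genes with the smallest p and a mean above 4 log2 were named, with the 5 genes most like Irf7 and Irf1. A list of ubiquitin genes had no named probe and is not analysed here.

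As alternatives, arrays were centred on their medians or quantile normalized, values below 4 or 6 log2 were raised to that floor, only probes above the median were kept, a replicate block or array weights were added, variances were fitted robustly with an intensity trend, the methods' t-test was run in unpaired and paired form, and further choices were the mean over a gene's probes and leaving out each mouse. Their use for the 2 target lists was added after the data were seen. The fit was tested on simulated data. P-values measure only the spread between these 3 and 3 arrays, which may be technical. Groups follow the labels alone, and the paper differs from them on the age of the mice, the time of collection and the order of injection and irradiation. Marker sums without their brightest or separating genes were added after the data were seen.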

Additional observations from a re-analysis of the deposited data

How the results depend on the processing

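Irf7, Dhx58, Stat2 and Irf8 kept the sign of their difference in all 13 alternatives computed for each. Irf7 lay between -0.81 and -0.60 and Dhx58 between -1.06 and -0.47. For Irf7 and Dhx58, whose groups do not overlap, leaving out 1 mouse could not turn the sign. Quantile normalization, median centring, both floors and the choice of probes above the median left them at -0.67 and -0.87. Nothing is read from their kept sign. Irf1, Irf3, Irf9, Ifih1 and Ifnar2 did not keep theirs, and averaging the probes gave 0.16 for Irf3. With values under 4 log2 raised to 4, Ifih1 differed by -0.21 and Ifnar2 by -0.13, and array weights gave -0.50 for Ifnar2; a floor of 6 leaves no value for these 2 genes. The causes of these changes and of those below were not tested. Dim probes limit what can be measured.

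The pathway genes with a lower signal at an unadjusted p under 0.05 numbered 10 with probes above the median and 10 with the paired methods' t-test, and 8 to 21 without 1 mouse. Those with a higher signal numbered 2 with quantile normalization, 2 with a replicate block, 2 with the paired t-test, 3 with array weights, 3 when probes of a gene were averaged and 1 to 5 without 1 mouse. None passed an adjusted p in any setting (0 without 1 mouse). Lower type I targets numbered 4 with the paired t-test and 4 to 9 without 1 mouse. Lower Irf1 and interferon gamma targets numbered 0 with probes above the median, 2 with the replicate block, 2 with the paired t-test and 1 to 3 without 1 mouse.

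Over all genes, 355 were lower and 257 higher with a floor of 4, 212 and 157 with a floor of 6, and 345 and 209 with probes above the median, against 648 and 445 as deposited. Array weights gave 713 higher genes. Without 1 mouse 577 to 844 were lower and 438 to 637 higher. At an adjusted p, 11 genes passed as deposited, 0 with either floor, probes above the median, the replicate block, the intensity trend or the paired t-test, 5 with the unpaired t-test, 6 when probes of a gene were averaged, 21 with array weights and 22 to 39 without 1 mouse. Same-numbered arrays did not go together more than others. Deviations of same-numbered arrays from their group means correlated at -0.00276, 0.0202 and -0.0906, and those of differently numbered arrays at -0.0935 to 0.0925. With 3 arrays per group these values cannot settle whether the numbers mark a pairing. The replicate block gave 14 lower pathway genes.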
